A study of Homo sapiens with 20 samples.

Results

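Histone genes were taken as every gene whose symbol in the platform annotation starts with H1-, H2A, H2B, H3-, H3C, H4- or H4C, or with an older name such as HIST1H. Each was read from its brightest probe set that names 1 gene, and 49 of the 11963 genes on the array qualified. Of them, 42 were classed by symbol as replication histones, and 6 were polyadenylated variants (H1-10, H2AJ, H2AX, H2AZ1, H2AZ2 and H3-3A). The remaining 1, H2AP, belonged to neither class. The 42 include H1-6 and H3-4, known mainly from testis, which were too dim to be tested. RNA came from 10 established human lines of T-cell leukemia (T-ALL, acute lymphoblastic), which share activating NOTCH1 mutations per the series' description: RPMI8402, PF382, P12-ICHIKAWA, MOLT3, KOPTK1, HPB-ALL, DND41, CUTLL1, CCRF-CEM and ALL-SIL. Each line gave 1 array after the vehicle DMSO and 1 after 100 nM CompE, both at 72 h. CompE inhibits gamma-secretase, the protease that releases the active intracellular part of NOTCH receptors, and the study asked which genes respond when NOTCH1 signalling is blocked in this way.

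Histones H2A, H2B, H3 and H4 form the core around which DNA is wound, and H1 binds the linker between cores. Replication histones are encoded by many near-identical genes, most of them in clusters on chromosomes 6 and 1. Their transcription peaks in S phase, and their mRNAs normally end in a stem-loop in place of a poly(A) tail. The variants are made throughout the cell cycle from genes with polyadenylated mRNA, and H2AX is known to give both kinds of transcript. Some clustered genes, H2BC21, H2BC5, H2BC12, H2AC6 and H1-2 among them, are also known to give polyadenylated transcripts, for instance in cells that leave the cycle. These 3' arrays follow the manufacturer's labelling, whose usual primer is oligo-dT, so a stem-loop mRNA is read poorly and a signal of a replication histone cannot be taken as its total mRNA. Near-identical copies may also share a probe set, whatever the annotation names.

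The promoters of 4 members are shown, since the results below turn on H2AC6, H2BC21 and H2BC5, with H2AZ1 as a variant for contrast. Each window is the 250 bases before the first listed transcription start in RefSeq (GRCh38.p14), upstream of the gene and read in its direction. Capitals mark 3 motifs on either strand: the octamer ATTTGCAT, known as the binding site of the OCT1 factor in H2B promoters, the CCAAT box, and TATAAA of the TATA box. The windows lie at chr6:26123922-26124171 on the plus strand (H2AC6), chr1:149886683-149886932 on the minus strand (H2BC21), chr6:26157871-26158120 on the plus strand (H2BC5, the first of 2 listed starts) and chr4:99950276-99950525 on the minus strand (H2AZ1).
H2AC6: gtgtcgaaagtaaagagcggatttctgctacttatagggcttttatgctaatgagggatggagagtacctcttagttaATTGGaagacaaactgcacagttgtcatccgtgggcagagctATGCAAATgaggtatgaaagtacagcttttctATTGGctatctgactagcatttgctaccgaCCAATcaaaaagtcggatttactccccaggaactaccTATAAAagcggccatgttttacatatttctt
H2BC21: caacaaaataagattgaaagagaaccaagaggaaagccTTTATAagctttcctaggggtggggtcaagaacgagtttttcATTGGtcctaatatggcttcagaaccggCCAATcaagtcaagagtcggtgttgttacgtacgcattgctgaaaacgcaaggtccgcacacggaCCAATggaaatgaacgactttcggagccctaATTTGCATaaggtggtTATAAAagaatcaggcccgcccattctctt
H2BC5: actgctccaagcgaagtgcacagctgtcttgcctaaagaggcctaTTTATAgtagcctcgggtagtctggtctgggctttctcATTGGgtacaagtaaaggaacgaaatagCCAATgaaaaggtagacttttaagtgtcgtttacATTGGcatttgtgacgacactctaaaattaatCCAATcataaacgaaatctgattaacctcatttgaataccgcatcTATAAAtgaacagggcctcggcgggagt
H2AZ1: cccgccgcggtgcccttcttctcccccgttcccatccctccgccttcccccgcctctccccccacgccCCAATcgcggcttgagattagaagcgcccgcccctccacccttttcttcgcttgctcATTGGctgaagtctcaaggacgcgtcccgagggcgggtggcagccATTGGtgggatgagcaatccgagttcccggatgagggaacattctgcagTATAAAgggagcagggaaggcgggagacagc

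H2AC6 and H2BC21 each held 1 octamer, which began 130 and 46 bases before the start, and H2BC5 and H2AZ1 held none. RefSeq listed a promoter for 46 of the 49 members. The octamer was found in 14 of 39 replication histones (35.9%), in 0 of the 6 variants and in 2.03% of 27305 genes of the table. CCAAT occurred in 34 of the 39 (87.2%) against 37% of all genes, and TATAAA in 26 (66.7%) against 13%. Among the 6 variants, 5 held CCAAT and 3 held TATAAA. These matches describe the letters in the window and say nothing of binding.

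The T-cell label matched the arrays: all 8 T-cell markers lay above the filter for dim genes, with summed signals of 9006 to 18551 in DMSO and 9080 to 21128 in CompE, while 0 of 4 myeloid markers passed it. Of the T-cell markers 1 was called higher and 1 lower, with 4 at an unadjusted p under 0.05 in limma. Of the other marker lists, 2 of 4 B-cell, 1 of 3 erythroid, 1 of 5 epithelial and 3 of 5 fibroblast genes passed it, and 0 of these changed under CompE by the test used here (limma, 0 at an unadjusted p under 0.05). Cell line accounted for 81.4% of the sum of squares of the tested replication histones, treatment for 5.25% and the rest for 13.3%. For the tested variants these shares were 72.3%, 1.31% and 26.4%, and for all tested genes 87.2%, 2.98% and 9.78%. The pair of KOPTK1 arrays stood apart in RNA quality. There the 3' over 5' ratio of the ACTB control probe sets, which grows as RNA is broken or copied short, went from 3.32 in DMSO to 9.76 in CompE, a log2 change of 1.56, against changes of -0.0488 to 0.542 in the other 9 lines. Some of the results that rest on KOPTK1 are given with and without it, and for others its value is given.

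Changes are given on the scale of log2(signal + 16), as CompE minus DMSO within a line, which understates the change of dim probe sets. A gene was called when its adjusted p in limma was under 0.05 after Benjamini-Hochberg adjustment over all 7695 genes above the filter, a signal of 32.5. The filter left 18 of the 42 replication histones, 5 of the 6 variants and not H2AP. At its edge, H2AC4 lay just outside with a signal of 32.3 and H2AC8 just inside with 34.4. The 24 replication histones left out had mean DMSO signals of 4.75 (H2BC3) to 32.7 (H1-4), and H2AJ had 9.4. Of the 23 tested histone genes, 2 were higher in CompE and 0 lower, beside 303 higher (3.94%) and 249 lower (3.24%) of all tested genes, 7.17% in all. With each array centred on its median, 116 genes were higher and 340 lower, and 0 histone genes were called. An exact sign-flip test over the 10 pairs gave 1851 genes at an unadjusted p under 0.05 against 1934 in limma. Its smallest possible p is 0.00195, which 259 genes reached and which became 0.058 after adjustment, so it called 0 genes. Over 10 lines, p-values measure the spread between lines, and no label tells whether separate cultures fed a line's DMSO and CompE arrays.

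H2AC6 (HIST1H2AC), a core H2A gene of the chromosome 6 cluster, rose under CompE. Its signal in DMSO was lowest in CCRF-CEM at 48.6, had a median of 129, and was highest in DND41 at 562. In CompE the lowest, median and highest signals were 77.3, 187 and 1618, in the same lowest and highest lines. The ranges overlapped widely across lines, but 7 of 10 lines were higher within their pair. The mean signal was 176 ± 144 (SD, n = 10) in DMSO and 354 ± 456 in CompE. The mean change was 0.66 ± 0.19 (limma SE), with an adjusted p of 0.0459. Changes were largest in HPB-ALL (1.66), DND41 (1.5) and CUTLL1 (1.37), and PF382 (-0.33), MOLT3 (-0.24) and P12-ICHIKAWA (-0.11) went the other way. The call lay close to the threshold. It was lost without ALL-SIL (adjusted p = 0.0787), CCRF-CEM (0.0627), CUTLL1 (0.0982), DND41 (0.112), HPB-ALL (0.117) or RPMI8402 (0.0911) in limma, and held without KOPTK1 (0.0385).

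H2BC21 (HIST2H2BE), an H2B gene on chromosome 1, was the other gene called. Its DMSO signals ran from 3.73 in DND41 through a median of 112 to 268 in PF382, and its CompE signals from 36.8 in DND41 through 176 to 425 in PF382. The mean was 115 ± 67.8 (SD, n = 10) in DMSO and 188 ± 125 in CompE. It was higher in 8 lines, and CCRF-CEM (-0.09) and KOPTK1 (-0.32) were lower. The mean change was 0.61 ± 0.17 (limma SE), with an adjusted p of 0.0448. HPB-ALL (1.60), DND41 (1.42) and CUTLL1 (1.07), the 3 lines with the largest changes of H2AC6, also had the largest here. The value in DND41 rests on a DMSO signal near 0, and without DND41 the change was 0.52 (adjusted p = 0.101). The call was also lost without ALL-SIL (0.0627), CUTLL1 (0.092), HPB-ALL (0.114), MOLT3 (0.065), PF382 (0.0731) or RPMI8402 (0.0974), and held without KOPTK1, where the limma adjusted p was 0.012.

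Of the 25 alternative settings in which they could be fitted, H2AC6 and H2BC21 were each called in 8. Their changes lay between 0.54 and 0.91 for H2AC6 and between 0.37 and 0.81 for H2BC21 in these settings, all above 0.

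**Figure D1:**
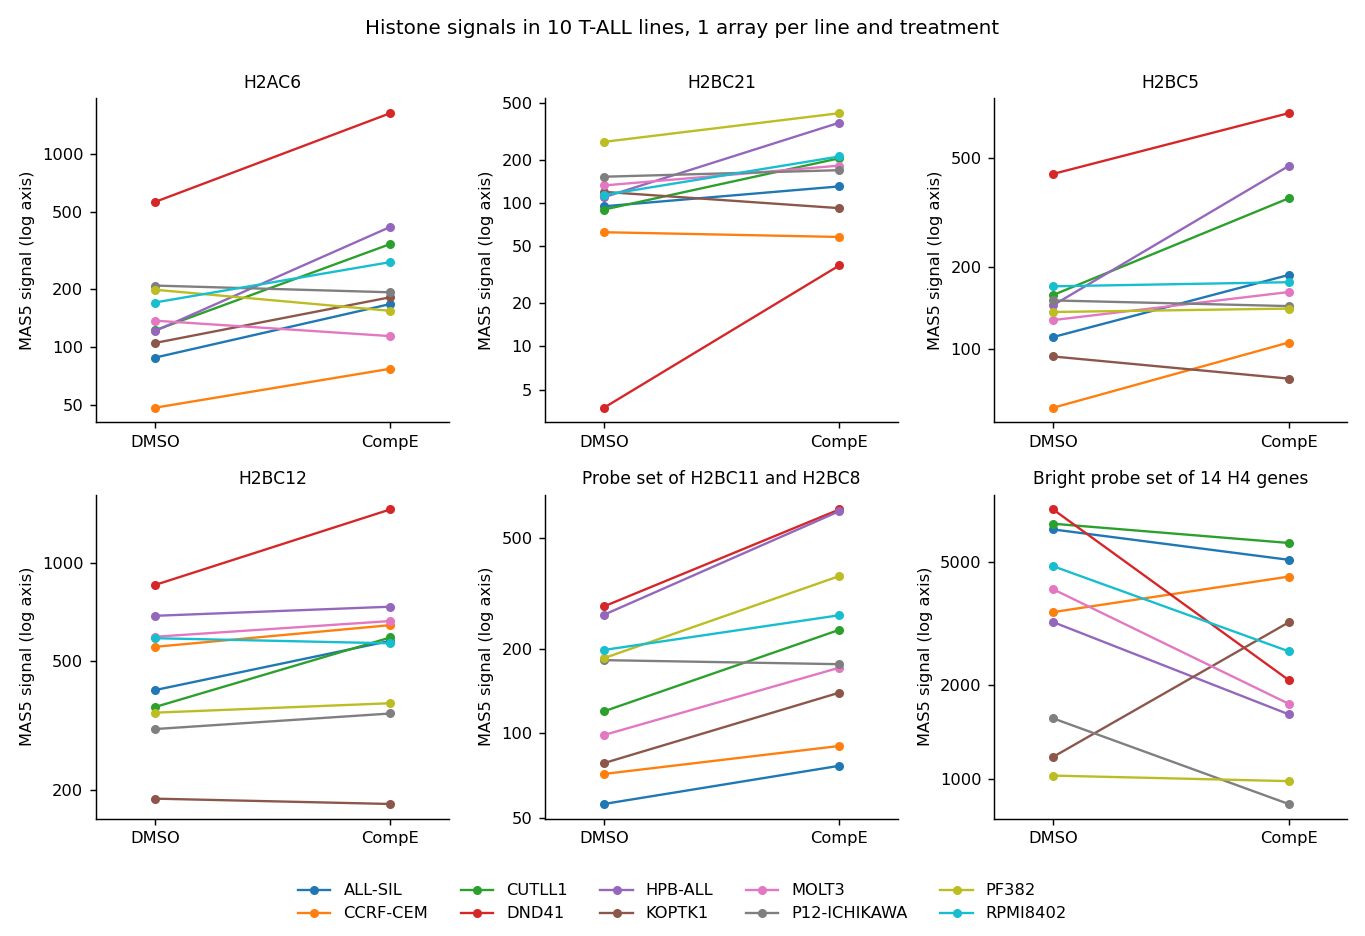
Signal of 4 histone genes and 2 probe sets shared by several genes in DMSO and CompE, on log axes of MAS5 signal; each coloured line joins the 2 arrays of 1 cell line. H2AC6 is higher in CompE in 7 of 10 lines and H2BC21 in 8, DND41 starts at a signal of 3.73 for H2BC21, and the bright H4 probe set is lower in 8 lines and higher in CCRF-CEM and KOPTK1.

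H2BC5 (HIST1H2BD), another H2B gene of the chromosome 6 cluster, had a change of 0.48 ± 0.16 (limma SE) and did not pass the test (adjusted p = 0.0709). Its signals were 61.3 to 437 in DMSO with a median of 141, and 78.3 to 728 in CompE with a median of 169. It was higher in 8 lines, again most in HPB-ALL (1.59), CUTLL1 (1.10) and DND41 (0.72), with KOPTK1 (-0.23) and P12-ICHIKAWA (-0.07) below 0. A second probe set of H2BC5 had means of 107 in DMSO and 177 in CompE, a change of 0.63 and 9 higher lines. It ordered the lines differently: PF382 (1.68), HPB-ALL (0.91) and ALL-SIL (0.81) had its largest changes, with KOPTK1 at 0.64, CUTLL1 at 0.62, DND41 at 0.55 and P12-ICHIKAWA (-0.57) below 0. In a fit with every probe set as a feature, added after the data were seen, this second probe set was called (adjusted p = 0.0346), while those of H2AC6 (0.0584) and H2BC21 (0.0566) were not. Of 13329 probe sets in that limma fit, 279 were called higher (2.09%) and 318 lower (2.39%). With the mean of its probe sets, H2BC5 was called at the gene level with a change of 0.56 (adjusted p = 0.0211), and without KOPTK1 it was called with 0.56 (limma adjusted p = 0.0245).

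H2BC12 (HIST1H2BK) had mean signals of 488 ± 202 in DMSO and 613 in CompE (SD, n = 10), from 188 to 856 and from 181 to 1464. It was higher in 8 lines, with 0.76 in DND41 and 0.69 in CUTLL1 and slightly negative values in KOPTK1 and RPMI8402 (-0.05 each). Its change of 0.26 ± 0.10 (limma SE) did not pass the test with all lines (adjusted p = 0.112) and passed it without KOPTK1 (0.29, adjusted p = 0.048). H2BC6 was higher in 9 lines, with a change of 0.34 ± 0.15 and an adjusted p of 0.16 in limma. Its largest value, 1.53 in PF382, stood far from those of the other lines. H2BC9, at -0.04, was the single tested H2B gene below 0, with an adjusted p of 0.909 in limma, and its sign turned in several settings. H2BC12L had a change of 0.13 with 6 higher lines, from -0.78 in P12-ICHIKAWA to 1.20 in KOPTK1.

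The other 4 tested H2A genes, H2AC8, H2AC14, H2AC17 and H2AC25, had changes of 0.06 to 0.13 and adjusted p-values of 0.677 to 0.856 in limma. All 5 tested H2A genes were thus above 0, but 1 of them was called. H2AC25 was higher in 8 lines, and its lowest value was -1.02 in KOPTK1.

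H1-2 (HIST1H1C), a linker histone, was the 1 replication H1 gene above the filter. Its signals ran from 21.9 to 360 in DMSO, with a median of 65.7, and from 49.9 to 560 in CompE, with a median of 105. It was higher in 9 lines, with a mean change of 0.52 ± 0.17 (limma SE) and an adjusted p of 0.0787. The largest change, 1.96, came from KOPTK1, where the signal went from 21.9 to 132, and the single lower line was P12-ICHIKAWA (-0.25). Without KOPTK1 the change was 0.36 (adjusted p = 0.0802 in limma), and with the ACTB ratio as a covariate it was 0.24 (0.45).

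No tested gene of the H3 and H4 families was called in limma, and 1 of these 6, H4C4, had an unadjusted p under 0.05 (0.0462). H4C9 had a change of 0.37 ± 0.18, H4C4 of 0.34 and H4C11 of 0.28, each higher in 7 or 8 lines, with adjusted p-values of 0.19 to 0.267 in limma. H4C9 had a DMSO signal of 9.45 in HPB-ALL, far under the other lines, and that line gave its largest change of 1.54. H4C5 lay at -0.03. H3C8 had a change of 0.26 ± 0.22 and ranged from -0.85 in MOLT3 to 1.77 in PF382, and H3C2 lay at -0.06 with 3 higher lines. Their signals, under 110 in each line for H3C8 and H3C2, are dim.

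Over the 18 tested replication histones, 15 changes were above 0 (83.3%) and the median change was 0.26, beside 58.9% above 0 and a median of 0.04 for all tested genes. An unadjusted p under 0.05 with a higher value was reached by 7 of them (38.9%), against 15.2% of all tested genes, and by 0 with a lower value. By family, the medians were 0.52 for the 1 H1 gene, 0.11 for 5 H2A, 0.30 for 6 H2B, 0.10 for 2 H3 and 0.31 for 4 H4 genes. These genes passed a filter on signal. Over all 42 replication histones, dim ones included, the median was 0.13, against 0.08 for all 11963 genes. The median of the tested ones was 0.19 with each array centred and 0.23 after quantile normalization. With only probe sets not ending in _s_at or _x_at, 8 replication histones could be tested, and their median was 0.195. Near-identical copies may share signal, so the 18 genes are not 18 separate results.

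**Figure D2:**
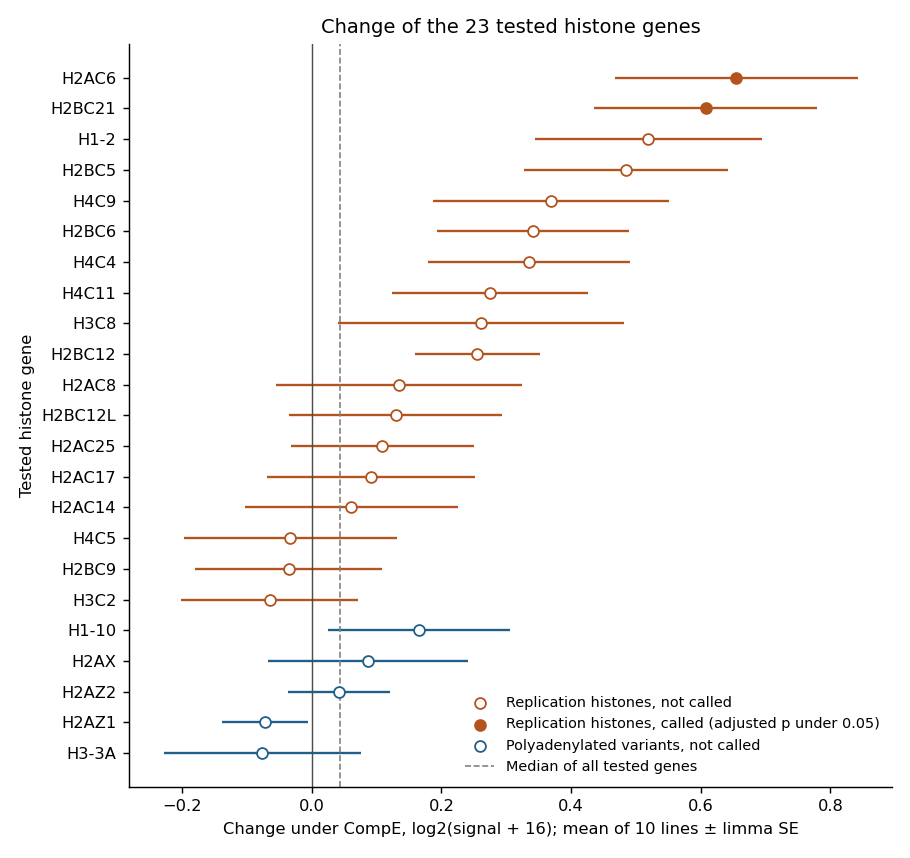
Change under CompE of the 23 tested histone genes on the log2(signal + 16) scale; points are means over 10 lines, bars are limma standard errors, filled points are called, and the dashed line is the median of all tested genes at 0.04. Of the 18 replication histones 15 lie above 0, with H2AC6 (0.66) and H2BC21 (0.61) farthest out, and the 5 variants lie between -0.08 and 0.17.

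None of the 5 tested polyadenylated variants was called, with adjusted p-values of 0.493 to 0.798 in limma, 0 unadjusted p-values under 0.05 and a median change of 0.04. That median turned to -0.03 without KOPTK1, and also to -0.03 with each array centred. H2AZ1, which marks promoters and enhancers, had a mean signal of 4697 ± 642 (SD, n = 10) in DMSO and 4466 in CompE. Its change was -0.07 ± 0.07 (limma SE), its lowest value was -0.43 in KOPTK1, and its second probe set gave 0.00. H2AZ2, the near copy of H2AZ1, had 3933 ± 893 in DMSO and 4022 in CompE, a change of 0.04 ± 0.08, and its other probe sets gave 0.18 and 0.10. The sign of H2AZ2 turned to -0.03 with each array centred. The groups overlapped nearly completely for both genes.

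H2AX, phosphorylated around DNA breaks, ran from 949 to 3526 in DMSO and from 1379 to 3631 in CompE, with medians of 2566 and 2413. Its change was 0.09 ± 0.15 (limma SE, adjusted p = 0.772), and 6 lines were higher. In KOPTK1 it went from 949 to 2991, a change of 1.64. The other 2 probe sets of H2AX above the filter disagreed, at -0.25 (mean 318 in DMSO and 253 in CompE) and 0.19 (71 and 86.3), and KOPTK1 was above 0 on both. On the former, DND41 (-1.6) and P12-ICHIKAWA (-1.21) were lowest. Without KOPTK1 the change of H2AX was -0.09 (adjusted p = 0.541 in limma), and with the ACTB ratio as a covariate it was -0.21. H1-10, a linker variant, had 1993 ± 799 in DMSO and 2227 in CompE and was higher in 8 lines. Its change of 0.16 ± 0.14 spanned 0.85 in KOPTK1 and -1.08 in P12-ICHIKAWA, where the signal went from 1673 to 780. It was 0.09 without KOPTK1 and 0.30 without P12-ICHIKAWA (limma adjusted p = 0.691 and 0.0849). H3-3A, which encodes the histone H3.3, had 137 ± 52.9 and 133 on its single-gene probe set, a change of -0.08. Its highest value was 1.04 in KOPTK1. The change was -0.20 without KOPTK1 and -0.24 with the ACTB ratio as a covariate. It turned positive without DND41 (0.01) or P12-ICHIKAWA (0.00).

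H2AJ, whose probe set lay under the filter, had signals of 9.4 ± 10.8 (SD, n = 10) in DMSO and a change of 0.51 with 9 higher lines, and was not tested. Of histone variants whose symbols fall outside the rule, CENPA, the centromeric H3, had a change of 0.13 (adjusted p = 0.408) and MACROH2A1 one of -0.05 (0.735 in limma).

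Many histone probe sets list several genes and were kept out of the gene values. Of 85 histone probe sets, 56 listed 1 gene and 29 several, and 20 of these 29 lay above the filter, 18 of them with a change above 0. In the fit with every probe set as a feature, 1 of these 20 was called. Of all 13329 probe sets in that limma fit, 2.09% were called higher and 2.39% lower, so 1 in 20 is no result about the list. The called probe set is shared by H2BC11 and H2BC8 and went from a mean of 154 ± 81.7 to 278 ± 204 (SD, n = 10). Its signals ran from 55.9 in ALL-SIL to 285 in DND41 in DMSO and from 76.6 to 634 in CompE, in the same lines. The change was 0.65 ± 0.13 (limma SE, adjusted p = 0.0164), with 9 higher lines and P12-ICHIKAWA at -0.04. It kept its call in the 13 further limma fits run for it, with adjusted p-values of 0.0082 (without KOPTK1) to 0.0497 (without HPB-ALL). These fits left out each line in turn, added the ACTB ratio, centred the arrays or normalized by quantiles. The other alternatives used for genes, such as the sign-flip test and no replicate block, were not run for it. The single-gene probe set of H2BC11 had a mean DMSO signal of 11.4 and was not tested. Of the pair of probe sets shared by H2AC18 and H2AC19 above the filter, the brighter went from 405 to 643, a change of 0.49 with 9 higher lines (limma adjusted p = 0.0927).

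The bright probe set shared by 14 H4 genes had a change below 0, unlike 3 of the 4 single-gene H4 probe sets above the filter. Its mean signal was 3962 ± 2312 (SD, n = 10) in DMSO and 2827 ± 1733 in CompE, and 8 of 10 lines were lower. The lowest and highest DMSO signals were 1022 in PF382 and 7362 in DND41, and in CompE they were 828 in P12-ICHIKAWA and 5741 in CUTLL1. The change was -0.46 ± 0.22 (limma SE) and was not called (adjusted p = 0.226). It ranged from -1.82 in DND41, where the signal went from 7362 to 2078, to 1.43 in KOPTK1, where it went from 1174 to 3184; CCRF-CEM was the other higher line (0.38). Without KOPTK1 the change was -0.67 and was called (adjusted p = 0.0212). In DND41 H2AC6 (1.5) and H2BC12 (0.76) rose, so histone probe sets gave changes of opposite sign within that line. A second probe set of the same 14 H4 genes gave 0.21, with means of 99.2 and 122, and 0.44 in DND41.

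For H3.3, the genes H3-3A and H3-3B were read mainly by 8 shared probe sets. All 8 had changes above 0, from 0.14 to 0.27 with a median of 0.22, and 7 to 10 higher lines each. Their median was 0.15 with each array centred and 0.11 after quantile normalization. None was called, with adjusted p-values of 0.0541 to 0.217 in limma and 7 at an unadjusted p under 0.05. In that limma fit of all probe sets, 3122 of 13329 had an unadjusted p under 0.05 and 2.09% were called higher. Without KOPTK1 2 of the 8 were called. In the gene-level fit, a separate test, leaving out KOPTK1 took the calls from 552 to 1031 genes. The share of all probe sets called without KOPTK1 is not given here. All 8 list H3-3A and H3-3B, so they are not separate results. The brightest of them went from 8177 ± 1666 to 9521 ± 1757 (SD, n = 10). The single-gene probe set of H3-3A, at -0.08, had the opposite sign.

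The classes were then compared line by line. The median change of the 18 replication histones was above 0 in 8 of 10 lines, from -0.09 in P12-ICHIKAWA to 0.58 in DND41. That of the 5 variants was above 0 in 6 lines, from -0.57 in P12-ICHIKAWA to 0.85 in KOPTK1. The replication median minus the variant median was above 0 in 8 lines, most in DND41 (0.93), CUTLL1 (0.54) and P12-ICHIKAWA (0.49), and below 0 in KOPTK1 (-0.74) and RPMI8402 (-0.11). Its mean was 0.18 ± 0.44 (SD, n = 10), and 0.28 ± 0.32 (n = 9) without KOPTK1, so the spread between lines was larger than the mean either way. No p is given, since the members were chosen with results known. The probe sets shared by several genes did not show this order. The median change was 0.21 for the 12 shared by replication histones and 0.22 for the 8 of H3.3, and the former was the higher in 5 of 10 lines. In P12-ICHIKAWA they were -0.53 and 0.30. In DND41, 16 of 18 replication histones and 0 of 5 variants were higher in CompE. In P12-ICHIKAWA 8 of 18 and 1 of 5 were higher, and in KOPTK1 10 of 18 and 3 of 5. The large values of H2AX, H1-10 and H3-3A (1.04) in KOPTK1 came with the rise in the ACTB ratio there, and its part in them was not tested.

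**Figure D3:**
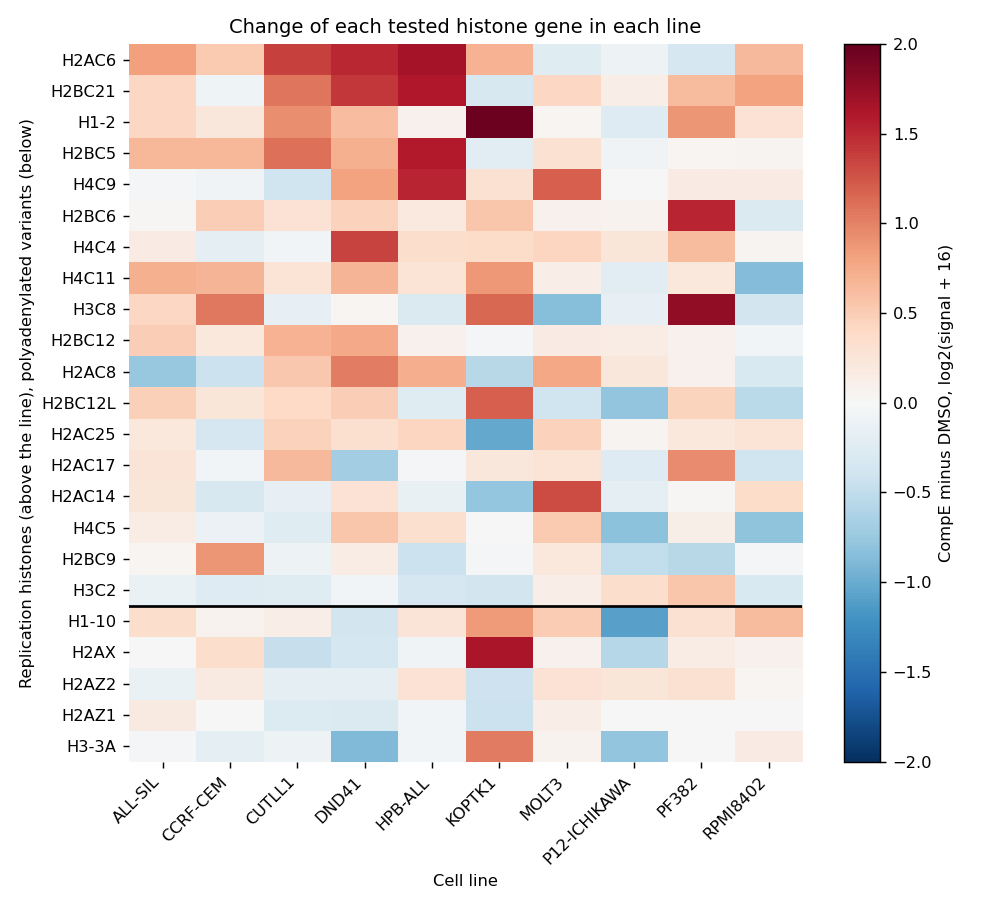
Change of each tested histone gene (rows) in each cell line (columns) on the log2(signal + 16) scale, red for higher and blue for lower in CompE; replication histones stand above the black line and variants below. H2AC6, H2BC21 and H2BC5 are darkest in CUTLL1, DND41 and HPB-ALL, and H2AX and H3-3A in KOPTK1.

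The machinery that copies DNA was set beside these values, since the bulk of histone synthesis is tied to S phase. Of all 7695 tested genes, 3159 had a change below 0, 249 were called lower (3.24%) and 1934 had an unadjusted p under 0.05 in limma. Of 29 tested DNA replication genes, 28 had a change below 0, with a median of -0.26. Of these 29, 0 were called, with 11 at an unadjusted p under 0.05. The smallest adjusted p-values in limma were those of GINS2 (-0.57, p = 0.0524), a helicase subunit, CDC6 (-0.47, 0.0537), which licenses origins, and the helicase subunits MCM4 (-0.40, 0.0552) and MCM6 (-0.27, 0.1). Without KOPTK1, GINS2 (0.0326) and MCM4 (0.0279) were called, GINS2 also without P12-ICHIKAWA (0.0322) and CDC6 without MOLT3 (0.043). By line, the median of these genes was -1 in HPB-ALL and -0.99 in CUTLL1, with 0 of 29 genes higher in either, and between -0.30 and 0.08 in the other 8 lines. HPB-ALL and CUTLL1 were both among the 3 lines with the largest changes of H2AC6, H2BC21 and the brighter probe set of H2BC5; on its second probe set this held for HPB-ALL and not for CUTLL1. The third line of those 3, DND41, had a median of -0.30 for DNA replication genes. Across the 10 lines, the Pearson r with the median of DNA replication genes was -0.76 for H2AC6, -0.63 for H2BC21 and -0.85 for H2BC5. The value for H2BC5 is that of its brighter probe set. Its second probe set changed most in PF382 (1.68), where the median of DNA replication genes was 0.02. Among the other replication histones, Pearson r was computed for H2BC12 (-0.38), H1-2 (0.02) and H2BC6 (0.11) only. By ranks (Spearman rho), the values were -0.79 for H2AC6, -0.43 for H2BC21, -0.71 for H2BC5 and -0.49 for H2BC12. They were -0.02 for H1-2 and -0.05 for H2BC6. For the bright H4 probe set Pearson r was 0.11. In bulk RNA, fewer cells with a transcript and less of it per cell cannot be told apart, so a share of cells in S phase was not measured.

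**Figure D4:**
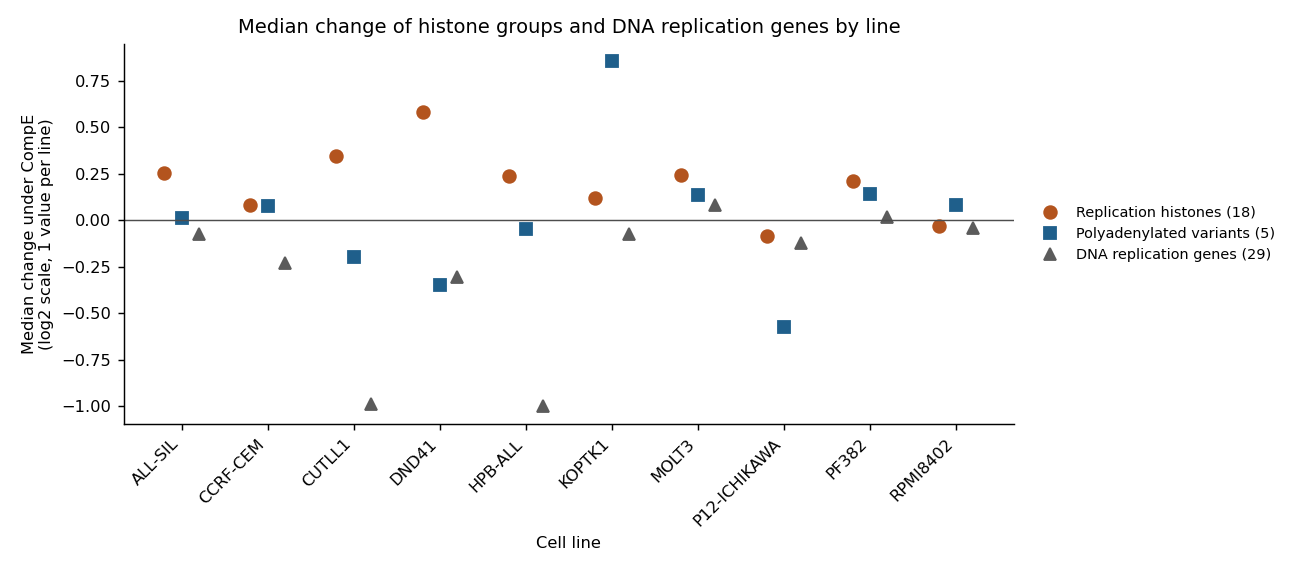
Median change under CompE of the 18 replication histones, 5 polyadenylated variants and 29 DNA replication genes in each line, on the log2(signal + 16) scale, 1 value per line and group. Replication histones lie above 0 in 8 of 10 lines, DNA replication genes are near -1 in CUTLL1 and HPB-ALL, and the variants reach 0.85 in KOPTK1.

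Of 18 tested genes for transcription and 3' end processing of histone mRNA, 0 were higher and 1 was lower, beside 3.94% and 3.24% of all tested genes in limma, so 1 in 18 is no result about the list. SSB, the La protein, which binds the 3' ends of new small RNAs, fell from a mean of 961 to 667. Its change was -0.49 ± 0.10 (limma SE, adjusted p = 0.0141), it was lower in all 10 lines, and it kept its call when any 1 line was left out. TUT7 (0.35) and TUT4 (0.25), enzymes that add uridines to histone mRNA, and CSTF2 (-0.21), a cleavage factor, were not called, with adjusted p-values of 0.103 to 0.238 in limma. SLBP, the stem-loop binding protein, went from 1645 to 1480 (-0.17, adjusted p = 0.31), and NPAT, the coactivator of the clusters, from 515 to 519 (0.01, 0.966 in limma); both were picked after their values were seen.

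Of 30 tested chaperones and assembly factors, 1 was higher and 2 were lower, counts read against the same shares of all genes (3.94% and 3.24%). UBN1, a subunit of the complex that deposits H3.3, rose by 0.41 ± 0.10 (limma SE, adjusted p = 0.0248) with 9 higher lines, but the mean of its probe sets gave 0.04. Its call was lost without DND41 (0.052), HPB-ALL (0.0615), PF382 (0.0545) or RPMI8402 (0.0607), with each array centred (0.0564), with a covariate for the ACTB ratio (0.132) and without the 3 lines of another medium label (0.0551). YEATS4, a reader subunit of the complexes that place H2A.Z, fell by 0.47 (adjusted p = 0.0302) with 9 lower lines, and the call was lost without CUTLL1 (0.0683), DND41 (0.064), HPB-ALL (0.0699), MOLT3 (0.0534) or RPMI8402 (0.0607), with the ACTB ratio (0.163) and without the 3 lines (0.0696). IPO4, an importin of H3 and H4, fell by 0.44 (adjusted p = 0.0466) and was called without KOPTK1 (0.0283) or P12-ICHIKAWA (0.0172), while leaving out any of the other 8 lines gave 0.0751 to 0.118 in limma. It was also lost with a pseudocount of 1 (0.0565), no filter (0.0814), the ACTB ratio (0.0562) and without the 3 lines (0.0594). SSRP1, a subunit of the FACT chaperone, had a change of -0.27 (limma adjusted p = 0.136).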

How the data were processed

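The deposited values are the authors' MAS5 signal intensities on a linear scale, made with MAS5 per the submitters' processing notes, which name no version. With the top and bottom 2% of probe sets trimmed, all arrays had a mean of 250, so they had been scaled to 1 target, and that scaling was kept. Per the labels' protocols, a column kit gave the total RNA, which was labelled with biotin. Detection calls were not used here. Median signals of the 20 arrays were 54.8 to 74.9, and precision is limited by the number of arrays.

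Of 22277 probe sets, 62 were controls, 19070 listed 1 gene in the platform annotation, 1043 several, and 2164 were not listed. RefSeq's gene table held the identifier and symbol of 19052 of the 19064 single-gene probe sets that are no controls. Each gene was read from its brightest probe set; genes whose mean log2 signal lay under the 40th percentile of probe sets were left out. Changes in log2(signal + 16) were fitted with a fixed block for the cell line and an intensity trend in limma 3.58.1 under R 4.3.3, two-sided, with Benjamini-Hochberg adjustment at 0.05 over all genes tested. The pairing comes from the labels. For 10 of 10 CompE arrays the best match among DMSO arrays was that of the same line (r = 0.918 to 0.984, at most 0.912 with other lines). The fit had 9 residual and 7.39 prior degrees of freedom.

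The members and gene lists were chosen with earlier results of these data known. Named members are those called, the 4 largest rises and 4 largest falls of the rest, the brightest of each family and class, and every tested variant; of each pathway list, up to 4 genes with the smallest adjusted p. Alternatives changed the pseudocount, filter, scaling, probe set choice, block, covariates, test and lines; the fit with probe sets as features was added after the data were seen. Other genes with values (H2AC8, H2AC14, H2AC17, H2AC25, H2BC12L, H4C4, H4C5, H2AJ, SLBP and NPAT) and the shared probe sets were chosen after their values were seen. For the lines MOLT3, P12-ICHIKAWA and CCRF-CEM the medium named for DMSO bears the name of a cell line and may be an error; 1 alternative left these 3 lines out. Promoter windows are from RefSeq, GRCh38.p14. The code was tested on simulated data.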

Additional observations from a re-analysis of the deposited data

Results flagged for a closer look

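In groups of 10 lines, a value was marked where its gap to the nearest other line was a large part of the group's range (Dixon's test at the 95% level). Of 50 groups examined, 9 held such a value. A rate of 1 in 20 would give 2.5 if the values were normally distributed, which was not tested. The groups also share lines and arrays.

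In DMSO, the DND41 array stood apart for 3 genes. H2BC21 had a signal of 3.73 there, the lowest line by far, while H2BC5 (437) and H3-3A (273) were at their highest. H4C9 had a signal of 9.45 in HPB-ALL in DMSO, under all other lines. In CompE, H1-10 had a signal of 780 in P12-ICHIKAWA, the lowest line.

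Among changes, H2BC6 had a value of 1.53 in PF382 and H2BC9 one of 0.886 in CCRF-CEM, each far above the other lines. H2AX had a change of 1.64 in KOPTK1, and the median change of the variants there was 0.854. The ACTB 3' to 5' ratio of KOPTK1 rose in the same pair of arrays, from 3.32 to 9.76, and its part in these values was not tested.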

How the results depend on the processing

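H2AC6 and H2BC21 lay close to the threshold. The count of 2 histone genes higher in CompE became 0 with a pseudocount of 1, no filter, centred arrays, quantile normalization, a random block, no trend in eBayes, probe sets as features (brightest probe sets counted), the 10th percentile of signal as a covariate beside the replicate block, the exact sign-flip test and no replicate block, and 1 (H2BC21) with the ACTB ratio as a covariate. Leaving out 1 line gave 0 to 4, the latter without KOPTK1. It was also 0 with probe sets not ending in _s_at or _x_at, where neither gene could be tested. In every setting run, 0 members were lower.

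The count of 552 genes called became 0 with the 10th percentile covariate, the exact sign-flip test and no replicate block, where an unadjusted p under 0.05 was reached by 1045, 1851 and 369 genes (limma, sign-flip and limma), against 1934 in the main limma test. It became 318 with the ACTB ratio, 351 of 4764 tested (7.37%, against 7.17%) with probe sets not ending in _s_at or _x_at and 298 without the 3 lines whose DMSO label names another medium. Leaving out 1 line gave 181 (HPB-ALL) to 1031 (KOPTK1). Centring each array turned 303 higher and 249 lower into 116 and 340. Fewer genes were tested in the setting with 4764, and the sign-flip test's smallest adjusted p was 0.058; the cause of the other moves was not tested.

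Uncalled changes near 0 turned sign, as did the variants' median (-0.0333 without KOPTK1, -0.03 with centred arrays). H2AX became -0.207 and H2AZ1 0.0263 with the ACTB ratio, as did MACROH2A1 (0.0388). H2AZ2 became -0.03 with centred arrays. With the 10th percentile covariate H2AZ2 became -0.0126, H2BC9 0.0713 and H3-3A 0.0413. Without the 3 lines H2AZ2 was -0.0422 and H3-3A 0.019. Leaving out 1 line gave ranges of -0.0856 to 0.16 for H2AX, -0.138 to 0.0221 for H2BC9, -0.2 to 0.013 for H3-3A, and -0.0899 to 0.00856 for MACROH2A1. The median changes of the 2 classes moved by less than the spread between lines in each alternative run.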
